A study of Mus musculus with 2 samples.

Results

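The transcripts of 36 genes of phosphoinositide 3-kinase (PI3K), Akt and mTOR signalling were followed in ALL211, a T-cell acute lymphoblastic leukemia that arose in a mouse, before and after the return of the transcription factor Ikaros. The genes were chosen by name as parts of this pathway, with earlier results of these data known. All 36 were found among the 27179 genes of the count table by Entrez identifier. The leukemia carries Vav-tTA;TRE-GFP-shIkaros. In this system the Vav promoter, active across blood cells, drives a tetracycline-controlled transactivator, which switches on GFP together with a short hairpin RNA against Ikaros, and doxycycline (Dox) switches both off. Cells were sorted from the spleens of leukemic recipient mice, as GFPhigh cells from untreated animals (n = 1 library) and as GFPmid cells from animals given Dox for 3 days (n = 1 library). Both groups thus carried the same 2 transgenes and came from 1 leukemia. The series design names 2 mice per condition and the labels give 1 sample per condition, and the labels do not say whether RNA was pooled.

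Class I PI3K makes the membrane lipid PIP3 when antigen, cytokine or costimulatory receptors are engaged. PIP3 recruits Akt and its activating kinase PDK1, while lipid phosphatases remove it again. Akt holds back GSK3, FOXO factors and the TSC complex, which otherwise keeps the GTPase Rheb inactive. Rheb switches on mTOR complex 1 (mTORC1) at the lysosome when the Rag GTPases report that amino acids are present, and mTORC1 in turn promotes protein synthesis through S6 kinase and the 4E-BP repressors. In developing T cells the pathway supports growth and survival, and it is a recurrent target of mutation in T-cell leukemia.

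The libraries held 16960042 (untreated) and 16484613 (Dox) counts. Ikzf1, which encodes Ikaros, was at 120.5 CPM without Dox and at 1229 CPM with it, the direction the labels give. CPM is a gene's count divided by the scaled library total, times 1000000. All 10 T-cell markers examined were above 1 CPM in both libraries, and their summed level was 9638 and 11166 CPM. Since each condition has 1 library, no difference below has a replicate check or a p-value. Treatment, sorting gate and mouse differed together between the libraries and cannot be told apart. Intervals are exact 95% intervals of the counts; they cover counting error only, and reads copied by PCR are not independent molecules. A gene is described as higher or lower by 2-fold when its log2 fold (Dox over untreated, with a prior count of 2 added) is at least 1 in size. In such bulk RNA, fewer cells that express a gene and less of its RNA per cell cannot be told apart.

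Most of the pathway lay within 2-fold. Of the 36 genes, 3 (8.33%) were higher in the Dox library by 2-fold or more: Pik3cb, Castor1 and Ddit4. The share among all 12125 genes with at least 1 CPM in a library was 13.6%. Eif4ebp1 alone (2.78% of the 36) was lower by that much, beside 13.0% of all genes, so that 4 of the 36 lay past 2-fold either way, beside 26.6%. For the same 3 and 1 genes the whole counting interval lay past 2-fold, beside 9.11% (higher) and 8.38% (lower) of all genes. At 4-fold, 1 gene (Pik3cb) was higher, beside 4.46%, and none was lower, beside 3.07%. Pik3cb reached 1 CPM in the Dox library alone, so it could only be counted as higher, and its direction is not a finding. The 36 genes were more abundant than the table at large, with a median of 69.1 CPM in the untreated library beside 33.4 CPM. Among genes with at least 5 CPM in a library, 10.7% were higher by 2-fold and 11.6% lower, beside 2 and 1 of the 34 pathway genes that reached this level.

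Smaller differences leaned upward. The median log2 fold of the 36 genes was 0.29, and that of all genes was -0.01. At 1.5-fold, 12 of the 36 (33.3%) were higher, beside 23.6% of all genes, and 3 (8.33%) were lower, beside 24.1%. The counting interval lay wholly above a ratio of 1 for 20 genes (55.6%; all genes 38.7%), wholly below it for 9 (25%; all genes 40.0%) and held 1 for 7 (19.4%; all genes 21.2%). These counts describe the list and are not a test of it. With a trend of fold with gene length removed, the median of the 36 was 0.19.

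**Figure D1:**
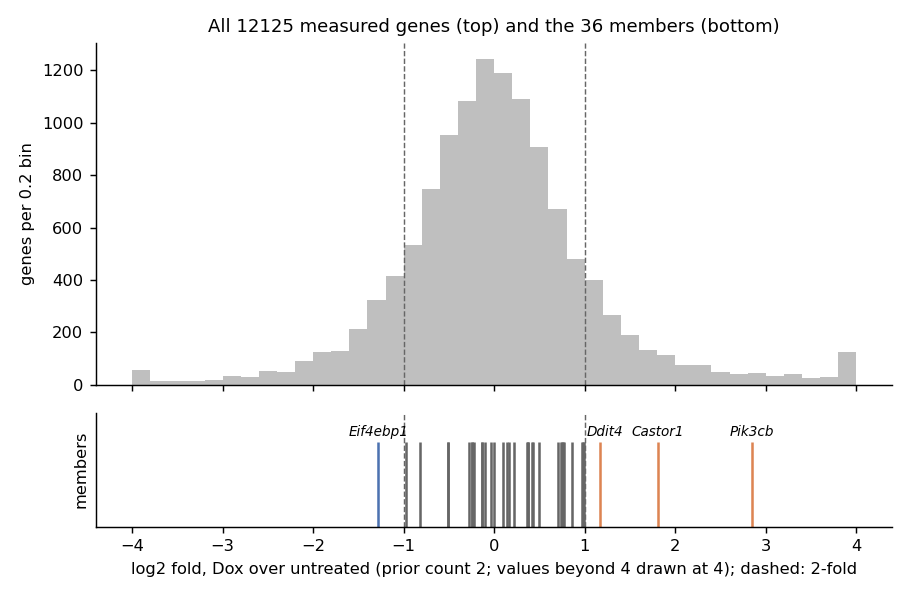
Distribution of the log2 fold, Dox over untreated, for all 12125 measured genes (top, number of genes per bin) and for the 36 pathway genes (bottom, 1 line each); dashed lines mark 2-fold. Of the pathway genes, 3 lie beyond the upper line and 1 beyond the lower line, with several just inside.

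Of the 4 catalytic subunits of class I PI3K, 3 (75%, beside 38.7% of all genes) were higher in the Dox library beyond counting error. The amounts were very different, and among them Pik3cb was kept through the Dox library alone. Pik3cd encodes p110 delta, the main catalytic subunit of lymphocytes. It had 2895 counts in the untreated and 4706 in the Dox library, or 169.6 and 287 CPM (log2 fold 0.76; ratio 1.69, interval 1.62 to 1.78). Pik3ca, which encodes the widely expressed p110 alpha, was at 98.6 and 132 CPM (log2 fold 0.42). Pik3cg, which encodes p110 gamma, the subunit that responds to G-protein-coupled receptors, was at 70.5 and 75.3 CPM, and its interval of 0.986 to 1.16 holds a ratio of 1. The delta and alpha transcripts were therefore higher in the Dox library beyond counting error, and the gamma transcript was not.

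Pik3cb, which encodes p110 beta (GRCm38 chromosome 9, 99038402 to 99140235), had the largest log2 fold of the 36 genes and the lowest level per length in the untreated library. It had 10 counts in the untreated and 81 in the Dox library, or 0.586 and 4.95 CPM (log2 fold 2.84; ratio 8.44, interval 4.36 to 18.3). It reached 1 CPM in the Dox library alone, so it had to be higher there to be kept. Markers of other blood cells moved with it. Of 14 macrophage and monocyte markers, 12 reached 1 CPM and 6 of these did so without Dox. The other 6 passed through the Dox library alone and so had to be higher there. The 6 that passed without Dox were also higher by 2-fold or more, and the 14 summed to 74.4 CPM without and 354 CPM with Dox. Itgam (60.6 and 181 CPM) made up most of both sums. Mpeg1 (1.64 and 96.8 CPM) was the next most abundant in the Dox library, and Marco was at 0 in both. The 8 dendritic cell markers summed to 113.9 and 169.2 CPM, most of it from Bst2 (113 and 122 CPM), the 1 marker with at least 1 CPM without Dox. Of the other 7, 4 were at 0 in the untreated library and 6 reached 1 CPM with Dox alone. Erythroid markers summed to 11.8 and 78.6 CPM, neutrophil markers to 4.74 and 9.83 CPM, natural killer markers to 0.762 and 6.23 CPM, platelet markers to 0.117 and 0.427 CPM, plasma cell markers to 84.1 and 75.4 CPM and stromal and endothelial markers to 254 and 357 CPM. That last difference came from Pecam1 (166 and 317 CPM), while Col1a2 (76.4 and 32.8 CPM) and Pdgfrb (4.69 and 0.122 CPM) were lower with Dox. The B-cell markers Pax5 and Ebf1 were at 0 in both libraries, and the 8 B-cell markers summed to 1.05 and 3.91 CPM. The part of these cells in the level of Pik3cb, or of other genes that myeloid cells share with T cells, was not tested.

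The regulatory subunits split. Pik3r1, which encodes p85 alpha and its shorter forms, had 1548 and 2924 counts, or 90.7 and 178.5 CPM (log2 fold 0.98; ratio 1.97, interval 1.85 to 2.10). Pik3r5 encodes p101, the partner of p110 gamma. It had 1084 and 2069 counts, or 63.5 and 126 CPM (log2 fold 0.99; ratio 1.99, interval 1.85 to 2.14). Both were just inside the 2-fold line, and their intervals reach past it. Pik3r2, which encodes p85 beta, was at 45.0 and 41.1 CPM (log2 fold -0.13), and its interval of 0.821 to 1.01 holds 1. The p101 transcript was thus close to 2-fold higher, while that of its catalytic partner Pik3cg differed by no more than counting error.

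Of the 3 genes that restrain PI3K or remove its lipid products, 2 were higher beyond counting error (66.7%, beside 38.7% of all genes). The other was lower beyond it (33.3%, beside 40.0%). Pik3ip1 encodes a membrane protein that binds and inhibits the catalytic subunits. It had 1126 and 2118 counts, or 66.0 and 129 CPM (log2 fold 0.97; ratio 1.96, interval 1.82 to 2.11). Inpp5d, which encodes SHIP1, a phosphatase of PIP3 in blood cells, was at 73.3 and 103 CPM (log2 fold 0.49; ratio 1.41, interval 1.31 to 1.52). Inpp4b encodes a phosphatase that acts on the next lipid in the chain. It had only 94 and 45 counts, or 5.51 and 2.75 CPM (log2 fold -0.97; ratio 0.499, interval 0.342 to 0.719). Without the prior count this ratio lies at the 2-fold line, and with it just inside.

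**Figure D2:**
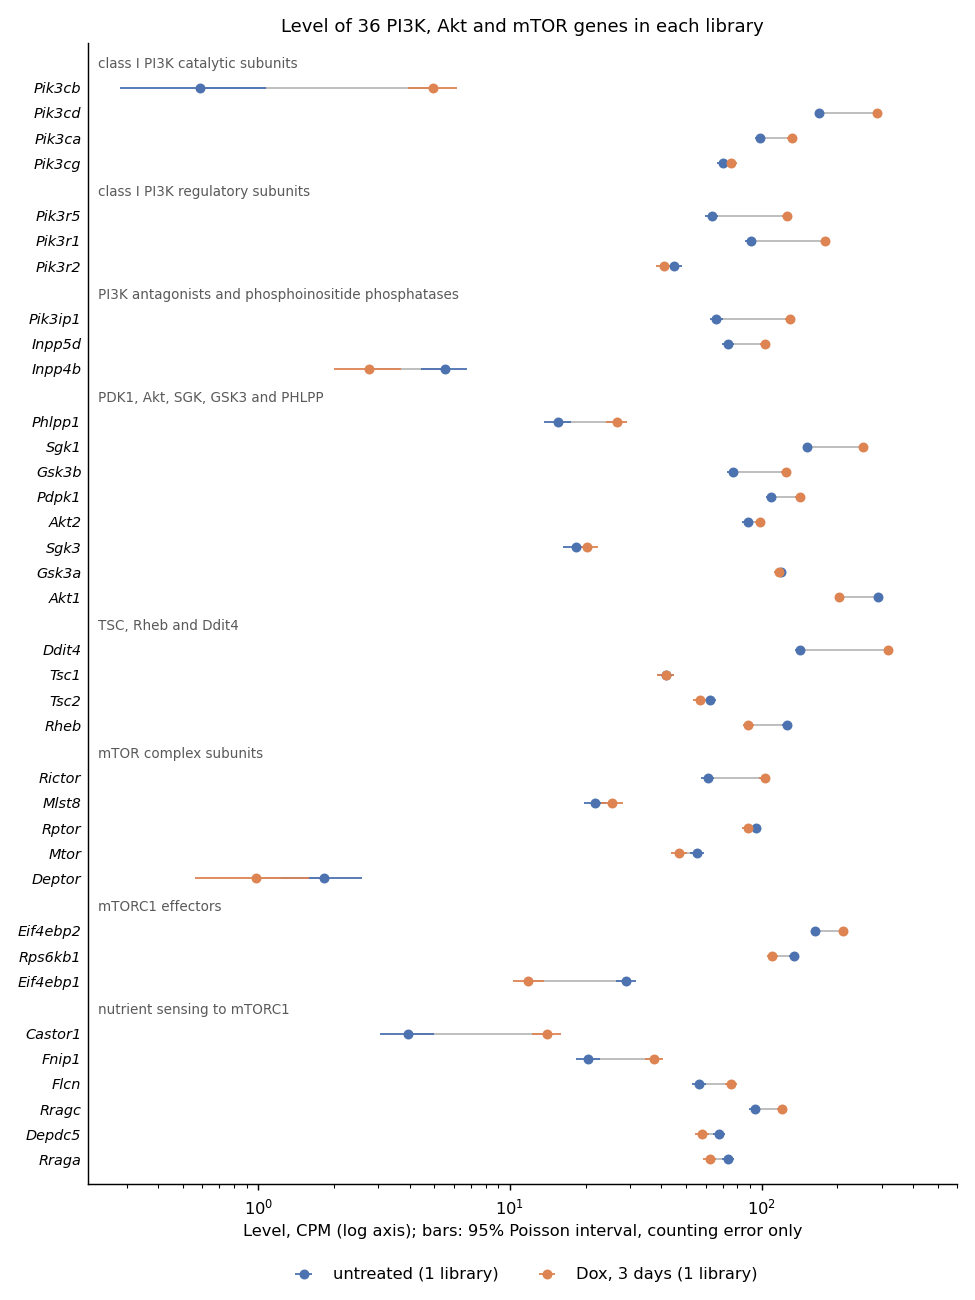
Level of each of the 36 genes in CPM on a log axis, grouped by role, in the untreated library and the Dox library (1 library each); bars are 95% Poisson intervals for counting error only. Most genes lie above 10 CPM with both points close together, and Pik3cb, Inpp4b, Deptor and Castor1 are the sparse ones.

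Among the kinases around Akt, Akt1 was the gene that was lower. Akt1, the most abundant of the 36 genes per length in the untreated library, had 4945 and 3322 counts, or 289.7 and 203 CPM (log2 fold -0.51; ratio 0.700, interval 0.670 to 0.732). Akt2 was at 88.2 and 98.5 CPM (log2 fold 0.16; ratio 1.12), and Pdpk1, which encodes PDK1, at 109 and 141 CPM (log2 fold 0.37). Phlpp1, which encodes a phosphatase that acts on Akt, had 265 and 435 counts (log2 fold 0.77; ratio 1.71, lower bound 1.47). The Akt1 difference was well beyond counting error and stayed within 2-fold.

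Sgk1 encodes a kinase related to Akt that mTORC2 and PDK1 activate. It was at 152 and 252 CPM (log2 fold 0.73; ratio 1.66, interval 1.58 to 1.75). Sgk3 was at 18.2 and 20.1 CPM, with an interval that holds 1 (0.944 to 1.30). Of the GSK3 kinases, which Akt inhibits, Gsk3b was at 76.6 and 125 CPM (log2 fold 0.70; ratio 1.63, interval 1.52 to 1.75) and Gsk3a at 119.8 and 117 CPM (log2 fold -0.04; interval 0.916 to 1.04). In each of these kinase families, 1 paralog was higher beyond counting error and the other was not. Of all genes, 38.7% were higher beyond counting error.

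Ddit4 encodes REDD1, a stress-induced protein that acts through the TSC complex to restrain mTORC1. It had 2418 counts in the untreated and 5221 in the Dox library, or 141.6 and 319 CPM (log2 fold 1.17; ratio 2.25, interval 2.14 to 2.36). Per length it was the third most abundant of the 36 genes in the untreated library, at 84.1 CPM per kilobase (RPKM), and the first in the Dox library, at 189 RPKM. The gene spans 59949675 to 59951770 of chromosome 10 (GRCm38). Its 250 upstream bases (RefSeq, GRCm38.p6, chr10:59951771-59952020, minus strand) are shown because it was the most abundant of the 4 genes past 2-fold. Capitals mark the CCAAT boxes, at 170 and 137 bases before the start and written here on the opposite strand as ATTGG.
Ddit4: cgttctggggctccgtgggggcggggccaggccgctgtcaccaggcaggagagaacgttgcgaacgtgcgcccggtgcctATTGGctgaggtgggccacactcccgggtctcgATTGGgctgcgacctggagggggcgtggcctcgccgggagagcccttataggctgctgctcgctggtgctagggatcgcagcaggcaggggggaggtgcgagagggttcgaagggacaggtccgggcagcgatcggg

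The other members of that step were level or lower. Rheb, the GTPase that activates mTORC1, had 2149 and 1450 counts, or 125.9 and 88.5 CPM (log2 fold -0.51; ratio 0.703, interval 0.658 to 0.752). Tsc1, the scaffold of the TSC complex, had 710 and 681 counts and was at 41.6 CPM in both libraries (interval 0.899 to 1.11). Tsc2, the subunit that inactivates Rheb, was at 62.3 and 56.7 CPM (log2 fold -0.13; interval 0.833 to 0.996). Tbc1d7, which encodes the third subunit of that complex, was at 20.7 and 13.7 CPM (log2 fold -0.60; ratio 0.660, interval 0.555 to 0.782). Tsc1 and Tsc2 therefore differed little, beside a higher Ddit4 and a lower Rheb and Tbc1d7. The contrast with Rheb was smaller with a gene length trend removed, at log2 folds of -0.19 (Tsc1), -0.27 (Tsc2) and -0.37 (Rheb).

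Of the mTOR complex subunits, Rictor had the largest difference beyond counting error. With a gene length trend removed, Rictor and Mtor differed by similar amounts in opposite directions, as given with the other processing choices below. Rictor, which defines mTORC2, had 1043 and 1682 counts, or 61.1 and 103 CPM (log2 fold 0.75; ratio 1.68, interval 1.55 to 1.82). Rptor, which encodes Raptor and defines mTORC1, was at 94.6 and 88.2 CPM (log2 fold -0.10; ratio 0.933). The kinase gene Mtor was at 55.4 and 46.9 CPM (log2 fold -0.24; ratio 0.846, interval 0.768 to 0.932). Mlst8, a subunit of both complexes, was at 21.8 and 25.5 CPM (log2 fold 0.22). Deptor, which encodes an inhibitory subunit, had 31 and 16 counts, or 1.82 and 0.977 CPM. Its interval of 0.275 to 1.01 holds both a 2-fold difference and none.

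Among the substrates of mTORC1, the 4E-BP repressor genes Eif4ebp1 and Eif4ebp2 went opposite ways. Eif4ebp1 encodes 4E-BP1, which binds the cap-binding protein eIF4E until mTORC1 phosphorylates it (GRCm38 chromosome 8, 27260327 to 27275656). It had 494 and 194 counts, or 28.9 and 11.8 CPM (log2 fold -1.28; ratio 0.409, interval 0.345 to 0.484), the lowest log2 fold of the 36. Eif4ebp2 was at 163.6 and 211 CPM (log2 fold 0.37; ratio 1.29, interval 1.23 to 1.36). Rps6kb1, which encodes S6 kinase 1, was at 134 and 110.5 CPM (log2 fold -0.28; ratio 0.822, interval 0.772 to 0.875). The binding partner itself, Eif4e, was also lower, at 205 and 94.5 CPM (log2 fold -1.12).

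The genes through which amino acids reach mTORC1 were led by Castor1, a cytosolic arginine sensor that restrains mTORC1 when arginine is scarce. Castor1 (GRCm38 chromosome 11, 4218166 to 4222409) had 67 counts in the untreated and 230 in the Dox library, or 3.92 and 14.04 CPM (log2 fold 1.81; ratio 3.58, interval 2.71 to 4.77). Fnip1 encodes the partner of folliculin, and the complex acts on the Rag GTPases. It was at 20.4 and 37.3 CPM (log2 fold 0.86; ratio 1.82, interval 1.60 to 2.09). Flcn, which encodes folliculin, was at 56.4 and 75.7 CPM (log2 fold 0.43). Of the Rag GTPases, Rragc was at 93.9 and 121 CPM (log2 fold 0.36) and Rraga at 73.5 and 62.2 CPM (log2 fold -0.24). Depdc5, a subunit of the GATOR1 complex that switches the Rag GTPases off, was at 67.7 and 58.1 CPM (log2 fold -0.22). Apart from Castor1, all of them lay within 2-fold.

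The upstream bases of Castor1 (RefSeq, GRCm38.p6, chr11:4217975-4218224, plus strand) are shown for comparison with Ddit4, as the next most abundant of the 3 genes higher by 2-fold. The capitals mark a single match to the Ikaros core letters GGGAA, read on the opposite strand as TTCCC, at 217 bases before the start.
Castor1: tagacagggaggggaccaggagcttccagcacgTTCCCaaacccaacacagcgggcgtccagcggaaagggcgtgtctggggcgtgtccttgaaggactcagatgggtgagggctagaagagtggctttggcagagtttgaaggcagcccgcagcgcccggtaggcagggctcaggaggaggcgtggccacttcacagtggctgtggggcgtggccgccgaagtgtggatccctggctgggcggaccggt

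RefSeq promoters were matched for 33 of the 36 genes (47 starts), with none for Deptor, Eif4ebp1 and Sgk3. The 250 bases before each start were searched on both strands for the letters GGGAA (Ikaros core), CACGTG (E-box, read by Myc and TFE factors), GTAAACA (FOXO), TGATGNAA (ATF4) and CCAAT. The core GGGAA was found for 19 of the 33 genes (57.6%) and for 62.7% of the 9305 measured genes with a promoter. The E-box was found for 4 (12.1%, beside 9.96%), the FOXO letters for 2, Akt1 and Pik3cg (6.06%, beside 2.57%), the ATF4 letters for 2, Akt2 and Pik3cd (6.06%, beside 2.45%), and CCAAT for 13 (39.4%, beside 41.1%). A match is a description of letters and not a binding site. The E-box genes are shown with up to 15 bases on each side and the E-box in capitals, because 2 of them, Fnip1 and Rragc, belong to the lysosomal step of the pathway.
Fnip1: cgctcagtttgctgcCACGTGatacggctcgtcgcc
Rragc: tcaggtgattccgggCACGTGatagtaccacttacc
Rheb: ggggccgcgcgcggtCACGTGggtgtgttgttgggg
Sgk1: tcctCACGTGttcttggcatggcta
The E-box lay 75 bases before the start in Fnip1, 112 in Rragc, 96 in Rheb and 246 in 1 of the starts of Sgk1 (chr11:54438089-54438124 plus, chr4:123917306-123917341 plus, chr5:24842437-24842472 minus and chr10:21993640-21993664 plus, GRCm38.p6). These genes did not share a direction, since Fnip1, Rragc and Sgk1 were higher and Rheb lower in the Dox library.

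**Figure D3:**
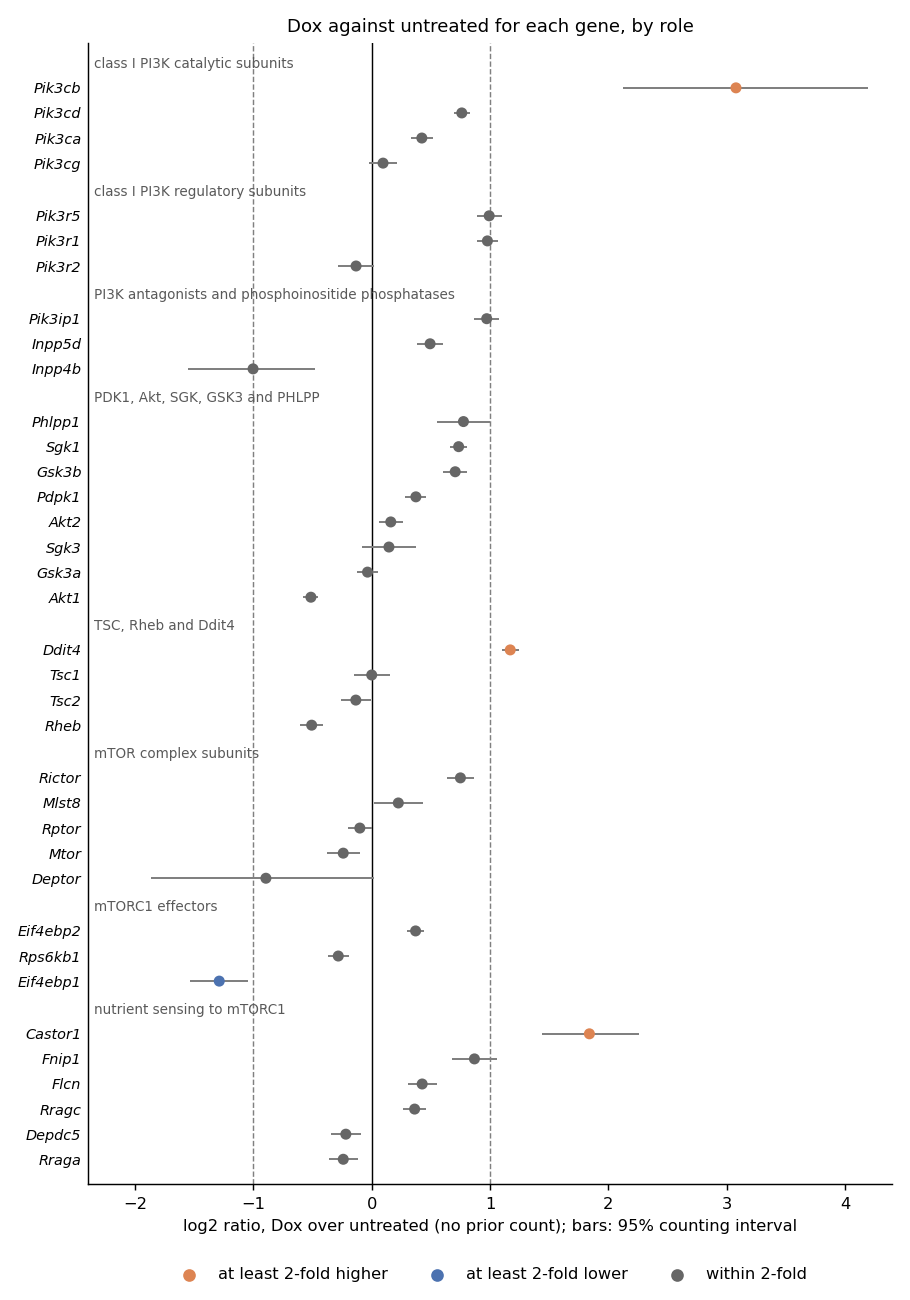
Log2 ratio of Dox over untreated for each gene without a prior count, with its 95% counting interval, grouped by role; dashed lines mark 2-fold and colours the genes past 2-fold with the prior count of 2. Pik3cb, Castor1 and Ddit4 lie above and Eif4ebp1 below, while Pik3r1, Pik3r5 and Pik3ip1 sit against the upper line.

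Levels of different genes can be set side by side only per length. On that scale the make-up of several families and pairs differed between the libraries. Rptor with Rictor, and Tsc1 with Tsc2, are pairs of complex subunits and not paralogs. Pik3cd made up 59.6% (interval 58.3 to 60.8) of the summed p110 level in the untreated library and 66.6% (65.6 to 67.6) in the Dox library. Pik3cg was 19.2% and 13.6% of that sum, and Pik3cb was 0.229% and 1.28% of it. The summed p110 level itself was 52.7 and 79.8 RPKM. Delta was thus the main catalytic transcript in both libraries, with the larger share in the Dox library.

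Between the p85 genes Pik3r1 and Pik3r2, the leading member per length differed between the libraries. Pik3r3, a further regulatory subunit gene at 3.31 RPKM untreated and 12.6 RPKM with Dox, was not part of this sum. Pik3r1 was 46.3% (44.1 to 48.5) of the Pik3r1 and Pik3r2 level in the untreated and 65.0% (63.1 to 66.9) in the Dox library. Without division by length Pik3r1 led in both, with 66.8% and 81.3% of the counts. Akt1 was 79.8% of the Akt1 and Akt2 level in the untreated and 71.3% in the Dox library, and their summed level was 135 and 106 RPKM. Rictor was 32.5% (30.8 to 34.2) of the Rptor and Rictor level in the untreated and 46.4% (44.7 to 48.2) in the Dox library.

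Eif4ebp1 was 24.4% (22.6 to 26.2) of the Eif4ebp1 and Eif4ebp2 level in the untreated library and 9.26% (8.07 to 10.5) in the Dox library. Eif4ebp3, a further 4E-BP gene at 6.21 RPKM untreated and 7.53 RPKM with Dox, was not part of this sum. The summed level of Eif4ebp1 and Eif4ebp2 was nearly even, at 121 and 130.5 RPKM, so the lower Eif4ebp1 stood beside a higher Eif4ebp2. Gsk3b was 14.8% and 22.5% of the GSK3 level. Tsc1 was 34.8% (32.6 to 37.0) and 36.9% (34.6 to 39.3) of the TSC level, with overlapping intervals. Sgk1 was 91.8% and 94.4% of the level of Sgk1 and Sgk3. Apart from the TSC pair, the untreated and Dox intervals of each of these families and pairs did not overlap, for any member. Such a separation is common at these counts. For single genes, the interval of the ratio held 1 for only 21.2% of all genes.

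**Figure D4:**
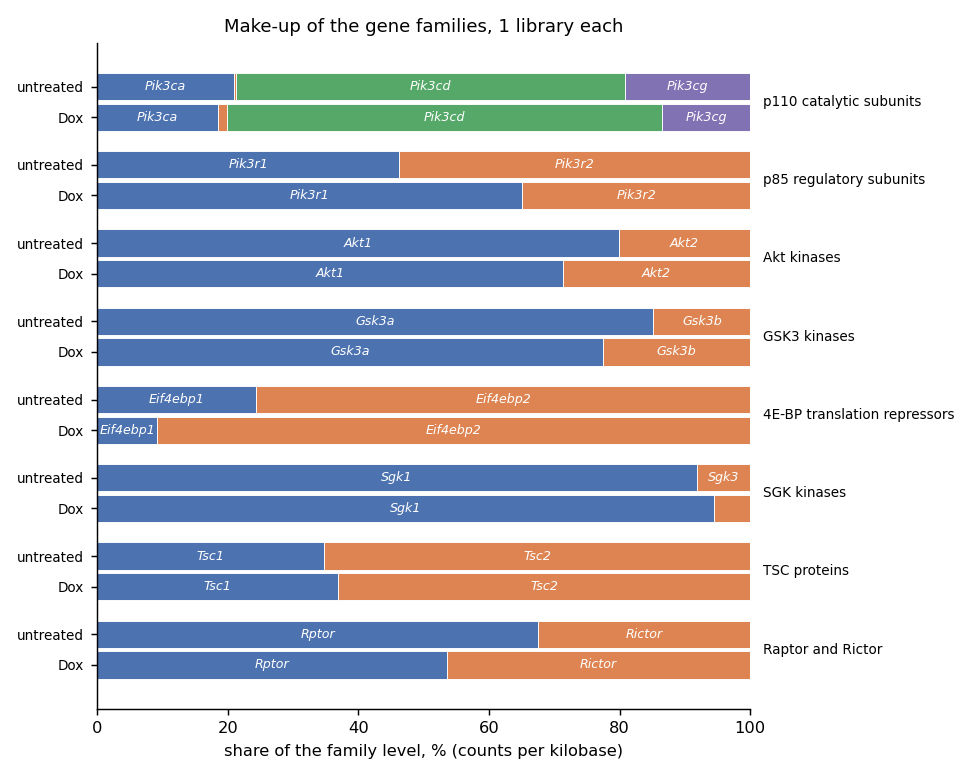
Share of each gene in the summed level of its family or pair, in percent of counts per kilobase, in the untreated and the Dox library (1 library each). The unlabelled narrow segment of the p110 bar is Pik3cb and the one of the lower SGK bar is Sgk3. Pik3r1 made up 46.3% and 65.0%, Rictor 32.5% and 46.4%, and Eif4ebp1 24.4% and 9.26%.

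Further genes of the pathway outside these 36 were also read from the table. They and their roles were listed with earlier results of these data known. The shares below therefore describe the list and are not a test of it. Of the 101 listed, 93 reached 1 CPM in a library. By the 2-fold rule 18 of the 93 (19.4%, beside 13.6% of all genes) were higher and 11 (11.8%, beside 13.0%) lower, so the lower share was near that of all genes. Their median log2 fold was 0.18. All 8 genes of PIP3-binding effectors had a positive log2 fold, beside 49.3% of all genes, with a median of 0.93. Of the 8, 4 were past 2-fold (50%, beside 13.6%). Among these, Cyth1, which encodes cytohesin-1, was at 124 and 311 CPM (1.32) and Plekha1 at 30.4 and 61.4 CPM (1.01), while Arap2 had 4 and 29 counts and was kept through the Dox library alone. Plekha1 was just under 2-fold (0.99) with total-count or DESeq2 scaling.

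Upstream of PI3K, 5 of 13 measured receptors and adaptors (38.5%, beside 13.6% of all genes) passed 2-fold upward and 1 (7.69%, beside 13.0%) downward. The common cytokine receptor chain Il2rg was at 291 and 619 CPM (log2 fold 1.09), the costimulatory receptor gene Icos at 17.1 and 41.8 CPM (1.28), Cblb, a ubiquitin ligase that dampens this signalling, at 53.1 and 110.5 CPM (1.05, and 0.91 with a gene length trend removed), and Gab3 at 2.64 and 5.86 CPM (1.12). The fifth, Pik3ap1, an adaptor of B cells and myeloid cells, had 6 and 69 counts beside the myeloid markers given above, and was kept through the Dox library alone. Igf1r, the insulin-like growth factor receptor gene, was at 45.2 and 14.8 CPM (log2 fold -1.60). Pik3r3, which encodes the regulatory subunit p55 gamma, was at 16.6 and 62.9 CPM (1.92), further apart than Pik3r1 or Pik3r2. Pik3c3, the class III kinase of autophagy, was at 71.4 and 77.8 CPM (0.12).

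Among other regulators, the sestrin genes, whose products restrain mTORC1, were higher. Sesn1 was at 121 and 374 CPM (log2 fold 1.62) and Sesn3 at 26.1 and 56.7 CPM (1.11), and these were the only 2 of 8 measured TSC and Rheb regulators past 2-fold upward (25%, beside 13.6% of all genes). Sesn2 was at 15.6 and 27.0 CPM (0.79). Trib2, a pseudokinase that binds Akt, was at 248 and 556 CPM (1.16). Tns3, which encodes a tensin, was at 70.4 and 6.96 CPM (-3.32), the lowest log2 fold among these 93 genes. The phosphatase catalytic subunit gene Ppp2ca was at 536 and 517 CPM (-0.05). Of the assembly factors of mTOR complexes, Telo2 was at 34.9 and 15.1 CPM (-1.20), and the mTORC2 subunit gene Mapkap1 was at 98.8 and 81.4 CPM (-0.28).

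Of 13 further mTORC1 effectors and translation genes, 4 (30.8%, beside 13.0% of all genes) passed 2-fold downward and 1 (7.69%, beside 13.6%) upward. Their median log2 fold was -0.37, and 5 of the 13 (38.5%, beside 49.3% of all genes) had a positive log2 fold. An interval that holds a ratio of 1 was found for 3 (23.1%, beside 21.2%), a share near that of all genes. Eif4a1, the cap helicase gene, was at 391 and 152 CPM (-1.37), Larp1, an mTORC1-regulated binder of ribosomal protein mRNAs, at 341 and 147 CPM (-1.22), and Eef2k, the elongation factor 2 kinase gene, at 116 and 56.7 CPM (-1.03). The fourth was Eif4e, given above. Eif4b, the most abundant per length, was at 1023 and 587 CPM (-0.80). Pdcd4 encodes an inhibitor of the helicase that S6 kinase marks for destruction. It was at 111 and 389 CPM (1.81), the single effector past 2-fold in the upward direction.

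Both genes of an amino acid transporter whose cargo activates mTORC1 were lower. Slc7a5 was at 175.6 and 30.4 CPM (log2 fold -2.52) and its partner Slc3a2 at 166 and 70.8 CPM (-1.23). Of the 5 genes of the Ragulator, the lysosomal scaffold of the Rag GTPases, Lamtor5 (58.6 and 73.2 CPM; ratio 1.25, interval 1.15 to 1.36) and Lamtor1 (74.5 and 83.5 CPM; ratio 1.12, interval 1.04 to 1.21) were higher beyond counting error. The intervals of Lamtor2 (66.7 and 70.6 CPM, log2 fold 0.08), Lamtor3 and Lamtor4 hold a ratio of 1. Among all genes, 38.7% had an interval wholly above 1, a share near that of the Ragulator, and 21.2% had one that holds 1. Castor2, the paralog of Castor1, was at 3.98 and 8.12 CPM (1.01), and between 0.89 and 0.99 with total-count or DESeq2 scaling, a prior count of 5 or a gene length trend removed. Of the 23 measured genes of this role, Castor2 was the 1 past 2-fold upward (4.35%, beside 13.6% of all genes). Slc7a5, Slc3a2 and Fnip2 were the 3 past it downward, a share of 13.0% that equals that of all genes.

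**Figure D5:**
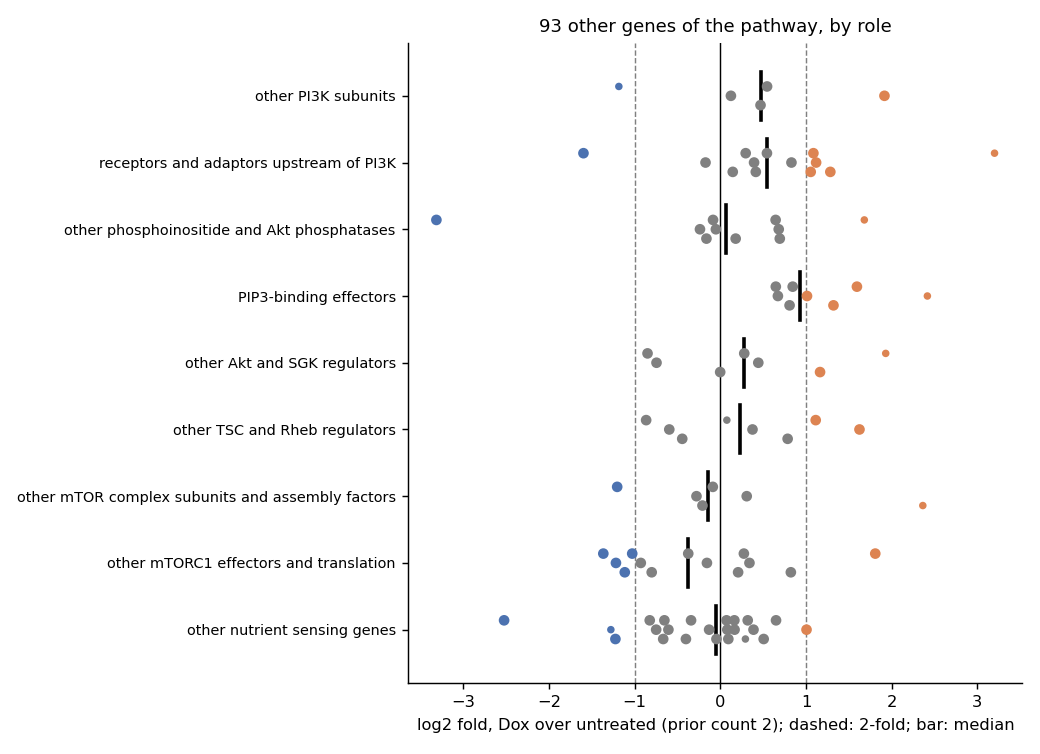
Log2 fold, Dox over untreated, of 93 further pathway genes by role; each point is 1 gene (small points are below 5 CPM in both libraries), bars are medians and dashed lines mark 2-fold. PIP3-binding effectors all lie above 0, with a median of 0.93, and effectors of translation have a median of -0.37.

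For some genes the reads could be shared. Exons of 9 of the 36 genes overlap exons of another annotated gene on the opposite strand (GENCODE, GRCm38), the longest being Mlst8 with Bricd5 (997 bases), Gsk3a with an antisense gene (820 bases) and Tsc2 with Pkd1 (693 bases). The strand setting of the counting is not known, so reads there cannot be told apart. Bricd5 had 0 counts in both libraries. Akt2 has a processed pseudogene that matches it over 1449 bases at 98.6% identity. Pik3cb shares stretches of 521 and 522 bases at 99.6% identity with Gm12978 and Gm12992, so its low counts are uncertain.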

How the data were processed

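RNA of sorted ALL211 cells was sequenced in 1 untreated and 1 Dox library. The authors deposited raw read counts per gene with Entrez identifiers and a gene length column; CASAVA 1.8.2 and featureCounts (version not given) with the mm10 build are named, per the submitters' processing notes. Not given in the sources used here are the annotation, strand setting, aligner and treatment of reads with several alignments. Symbols were assigned to 25275 of 27179 genes from RefSeq (GRCm38.p6); genes without one took 1.20% and 0.977% of counts and stayed in the totals.

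Counts were scaled by TMM (factors 1.01 and 0.994; edgeR 4.0.16, R 4.3.3). A floor of 3 counts is 0.176 and 0.183 CPM. Log2 folds use a prior count of 2; ratios, CPM and levels per kilobase (RPKM, with the deposited gene length) use none. Genes with at least 1 CPM in a library were kept. Intervals are exact: Poisson for levels, Clopper-Pearson for ratios and for shares; for the 4-gene family the mix of the other 3 genes was held fixed. No test between conditions was possible, and the planned replicated comparison was not run. Intervals and shares were computed with scipy 1.17.1 (Python 3.11.15) and tested on simulated counts; DESeq2 1.42.0 gave an alternative scaling.

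The 36 genes, the 101 further genes and the marker lists were chosen with earlier results of these data known. Some genes the rule would name are not reported here. Named genes are all 36, Ikzf1 and further pathway genes at least 2-fold apart with at least 5 CPM in a library. Also named are the most abundant per length of each role, and markers. Arap2, Pik3ap1, Fnip2, Sesn2, Tbc1d7 and Eif4ebp3 were chosen after their values were seen. So were the Ragulator genes other than Lamtor2, the low-count genes of the closing section and the promoters shown. Near copies were sought with blastn among GENCODE transcripts (at least 95% identity over 200 bases).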

Additional observations from a re-analysis of the deposited data

How the results depend on the processing

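No paired analysis was possible because each condition has 1 library. Leaving out a replicate was not possible for the same reason. Scaling (total counts, DESeq2, upper quartile), prior counts of 0.5 and 5, filters, thinning of the deeper library, totals without 171 genes of other cells, mitochondria, ribosomal proteins and haemoglobin, and removal of a gene length trend reversed no gene past 2-fold among the 36. The median log2 fold of the 36 ranged from 0.19 to 0.32 over these settings, and that of all genes from -0.03 to 0.03. Upper quartile scaling gave 5 of the 36 genes at least 2-fold higher (Pik3r1 and Pik3r5 joined, the latter at 1.02). Beside them stood 1699 of all 12125 genes, so under this scaling the share was near that of all genes. Thinning added Pik3r5 (4 higher, beside 1649 of 12142). The length trend added Pik3ip1 at 1.01 (4 higher, beside 1637 of 12125). It also added Inpp4b (-1.05) as a second gene at least 2-fold lower, for a count of 2, beside 1502 of 12125. Tsc1, Pik3cg and Gsk3a, all near 0, changed sign under at least 1 setting. Removing the length trend moved 18 of the 36 genes outside their counting interval, among them Pik3ca (0.18), Pdpk1 (0.20), Rictor (0.49), Mtor (-0.47), Depdc5 (-0.44) and Rps6kb1 (-0.48). At 1.5-fold, 12 of the 36 were higher and 3 lower; at 4-fold, 1 (Pik3cb; all genes 4.46%) and 0 (all genes 3.07%). Of the further genes, 29 and 22 passed 1.5-fold, 3 and 2 passed 4-fold, and 7 were lower with the whole interval past 2-fold. Of all genes, 2856 and 2928 passed 1.5-fold and 541 and 372 passed 4-fold; 1016 were lower with the whole interval; with a filter of at least 1 count 2993 were higher, and with at least 5 CPM 1091. Shares without division by length differed in value. For Pik3r1 in the untreated library, and for Rictor and Gsk3b in the Dox library, they also differed in which gene led. Rictor had 53.8% and Gsk3b 51.7% of counts in the Dox library. Depth limits Pik3cb, Deptor, Inpp4b and Castor1, with 10 to 94 counts in the untreated library.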

Other observations

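Several pathway genes that are scarce in these cells were at least 2-fold apart on few counts. Inpp4a, the paralog of Inpp4b, had 22 and 72 counts (ratio 3.41, interval 2.09 to 5.78), opposite in direction to Inpp4b. Fnip2, the paralog of Fnip1, had 56 and 21 counts (ratio 0.391, interval 0.225 to 0.656), also opposite to its paralog. Pik3c2b, a class II PI3K gene, had 50 and 20 counts (ratio 0.417, interval 0.235 to 0.713). Prr5, an mTORC2 subunit gene, had 2 and 18 counts (ratio 9.38, interval 2.25 to 83.4). Prr5 was kept through the Dox library alone, so it had to be higher there, and its direction is not a finding. Myeloid markers were higher in the same library, as given above, and their part in these values was not tested.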
